A study of Mus musculus with 12 samples.

Results

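The MHC class I presentation pathway was followed in mouse bone marrow-derived dendritic cells (BMDCs) through 10 genes, namely the heavy chain genes H2-K1 and H2-D1, the light chain gene B2m, the peptide transporter genes Tap1 and Tap2, the transporter-bound chaperone gene Tapbp, the immunoproteasome subunit genes Psmb8, Psmb9 and Psmb10, and the class I transactivator gene Nlrc5. They were taken by gene symbol and are 10 of the 55335 genes listed. All 10 passed the filter on low counts, which left 14357 genes, so no gene of the set was lost. BMDCs were grown from bone marrow of C57BL/6 mice aged 8 to 12 weeks for 6 days in GM-CSF, with the medium changed every 2 days, and CD11c-positive cells were selected on beads. All 12 cultures carried the CreER transgene from the Rosa26 locus and the labels name no other allele. There were 4 groups of 3 libraries. WT cells were untreated, and WTL cells received lipopolysaccharide (LPS, a bacterial outer membrane component) at 100 ng/ml for 3 h. WT + JSH23 cells received JSH-23 at 100 µM for 3 h, and WTL + JSH23 cells received JSH-23 for 3 h before LPS for 3 h, at the same doses. JSH-23 is a small molecule that keeps RelA, an NF-κB subunit, from entering the nucleus. Whether WT and WTL received its solvent, whether 4-hydroxytamoxifen was added to these cultures, and whether JSH-23 stayed on during LPS are not given in the sources used here. Nor is how long WT + JSH23 cells were kept between these 3 h and harvest.

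MHC class I molecules show peptides from inside the cell to CD8 T cells. Proteasomes cut proteins into peptides, and in immune cells the catalytic subunits encoded by Psmb5, Psmb6 and Psmb7 can be replaced by those encoded by Psmb8, Psmb9 and Psmb10 to form the immunoproteasome. TAP1 and TAP2 together carry the peptides into the endoplasmic reticulum, where tapasin, the product of Tapbp, helps to load them on a heavy chain paired with β2-microglobulin. NLRC5 is a nuclear protein that acts at class I promoters, and type I and type II interferons and NF-κB are known inputs to these genes. Dendritic cells use the pathway to prime CD8 T cells.

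On the genome, 7 of the 10 genes lie on mouse chromosome 17, in or beside the MHC (GRCm38, the build of the deposited files). Psmb9, Tap1, Psmb8 and Tap2 lie next to each other within 34.3 kb, from base 34181987 to base 34216321. Nlrc5 and Psmb10 are on chromosome 8 and B2m is on chromosome 2. Psmb9 (minus strand) and Tap1 (plus strand) face away from each other, with RefSeq transcription starts 226 bases apart. In the GENCODE gene models Psmb9 runs to base 34187764 and so overlaps Tap1, which begins at base 34187553. The RefSeq promoter table used here (GRCm38.p6, 250 bases before to 50 bases after each start) held 8 of the 10 genes, and Tap2 and Nlrc5 are not printed. The windows of H2-K1, H2-D1 and B2m are shown because they hold NF-κB letters, and that of Tap1 because it also covers 275 bases of the 300-base Psmb9 window. Capitals mark every match, on either strand, to the NF-κB letters GGGNNTTCC or GGANTTTCC, the interferon response core AAANNGAAA, the GAS letters TTCNNNGAA or the CCAAT box.
H2-K1, chr17:34000284-34000583, minus strand: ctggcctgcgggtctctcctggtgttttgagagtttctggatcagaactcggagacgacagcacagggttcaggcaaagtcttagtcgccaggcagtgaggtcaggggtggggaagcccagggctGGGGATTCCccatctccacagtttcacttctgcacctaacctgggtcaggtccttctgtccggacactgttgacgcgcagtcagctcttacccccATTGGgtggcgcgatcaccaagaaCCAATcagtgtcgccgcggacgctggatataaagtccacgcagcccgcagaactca
H2-D1, chr17:35262844-35263143, plus strand: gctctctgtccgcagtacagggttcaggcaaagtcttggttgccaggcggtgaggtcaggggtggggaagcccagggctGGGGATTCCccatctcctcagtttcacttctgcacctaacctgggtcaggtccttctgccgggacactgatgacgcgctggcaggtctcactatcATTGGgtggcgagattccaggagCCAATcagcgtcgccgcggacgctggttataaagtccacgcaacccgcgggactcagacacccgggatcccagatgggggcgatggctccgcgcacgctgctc
B2m, chr2:122147437-122147736, plus strand: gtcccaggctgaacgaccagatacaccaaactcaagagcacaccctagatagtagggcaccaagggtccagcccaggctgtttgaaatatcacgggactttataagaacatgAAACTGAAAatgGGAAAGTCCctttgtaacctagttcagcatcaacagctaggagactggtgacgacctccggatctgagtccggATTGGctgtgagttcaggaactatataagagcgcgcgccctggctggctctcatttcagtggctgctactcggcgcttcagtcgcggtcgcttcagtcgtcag
Tap1, chr17:34187306-34187605, plus strand: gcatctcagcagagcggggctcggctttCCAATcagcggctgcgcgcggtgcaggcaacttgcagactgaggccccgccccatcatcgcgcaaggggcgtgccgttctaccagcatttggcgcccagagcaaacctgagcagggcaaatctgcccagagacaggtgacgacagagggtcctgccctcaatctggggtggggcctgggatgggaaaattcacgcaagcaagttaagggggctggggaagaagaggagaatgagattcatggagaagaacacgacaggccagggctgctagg

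Among the 8 genes with a window, GGGNNTTCC was found in H2-K1 and H2-D1, against 5.82% of 32817 windows of the same length. The letters GGGGATTCC stand in both, inside a run of 47 bases that the H2-K1 and H2-D1 windows share without a mismatch. GGANTTTCC was found in B2m, as GGACTTTCC on the minus strand, against 1.26% of windows. AAANNGAAA was found in B2m against 10.5% of windows, and TTCNNNGAA in Psmb8 against 8.29%. CCAAT was found in 6 of the 8 genes, against 37.4% of windows. Tap1 and Psmb9 are both counted for the same match, as their windows overlap. These are matches of letters, not measured binding sites, and near matches were not counted. The H2-K1 and H2-D1 windows both hold tttcacttc, which comes close to the interferon response core on the opposite strand but does not match it. A window without a match can therefore still hold a site with other letters, and it says nothing of sites elsewhere.

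Total expected counts per library ran from 24664724 to 34837847 and overlapped between the groups. One library, WTL + JSH23 replicate 3, stood apart: a chi-square of its counts against the 2 other libraries of its group averaged 8.18 and 9.11 per gene, while other pairs within a group gave 2.33 to 4.50. Results that rest on it are given with and without it. Dendritic cell markers (Itgax, H2-Ab1, H2-Aa, Cd74, Flt3, Zbtb46) summed to between 20066 and 23049 TPM in every library. T cell, B cell, NK cell, mast cell and erythroid lists each summed to at most 6.09 TPM, so the libraries held nearly no RNA of these cells. A macrophage list (Adgre1, Mertk, Fcgr1, Csf1r, C1qa, C1qb) summed to 2039 to 2150 TPM in WT, 1410 to 1505 TPM in WTL, 1326 to 1388 TPM in WT + JSH23 and 1004 to 1047 TPM in WTL + JSH23, and its part in the results below was not tested. A neutrophil list summed to 171 to 226 TPM and a plasmacytoid dendritic cell list to 21.3 to 53.5 TPM, the latter from Tcf4 and Ccr9, with Siglech at or near 0. In bulk RNA, fewer cells of a type and less RNA per cell cannot be told apart.

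Resting BMDCs already expressed the pathway. On the TPM scale, which is per transcript length, B2m was the most abundant of the 10 genes in WT, at 6636 ± 67.3 TPM (SD, n = 3), the 13th highest of all genes. H2-K1 followed at 3643 ± 80.5 TPM and H2-D1 at 1976 ± 68.8 TPM. Tap1 reached 286 ± 7.89 TPM, Nlrc5 was near 215 TPM and Tap2 was the lowest at 191 ± 4.07 TPM. Reads of class I heavy chains can fit several genes: of the distinct 100-base stretches of their annotated transcripts, 0.957% for H2-K1 and 3.59% for H2-D1 also occur in transcripts of another gene, chiefly other H2 genes. The values of both are therefore uncertain. These shares count exact stretches without weight for expression, so they do not bound the error of the counts. Fractional counts were present for 7 of the 10 genes, in which reads were divided between overlapping or similar genes. Tap1 and Psmb9 overlap each other, Tapbp overlaps Zbtb22 and B2m overlaps Patl2. Noncoding genes on the other strand overlap Tap2, Tapbp, Psmb8, Psmb10 and Nlrc5.

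**Figure D1:**
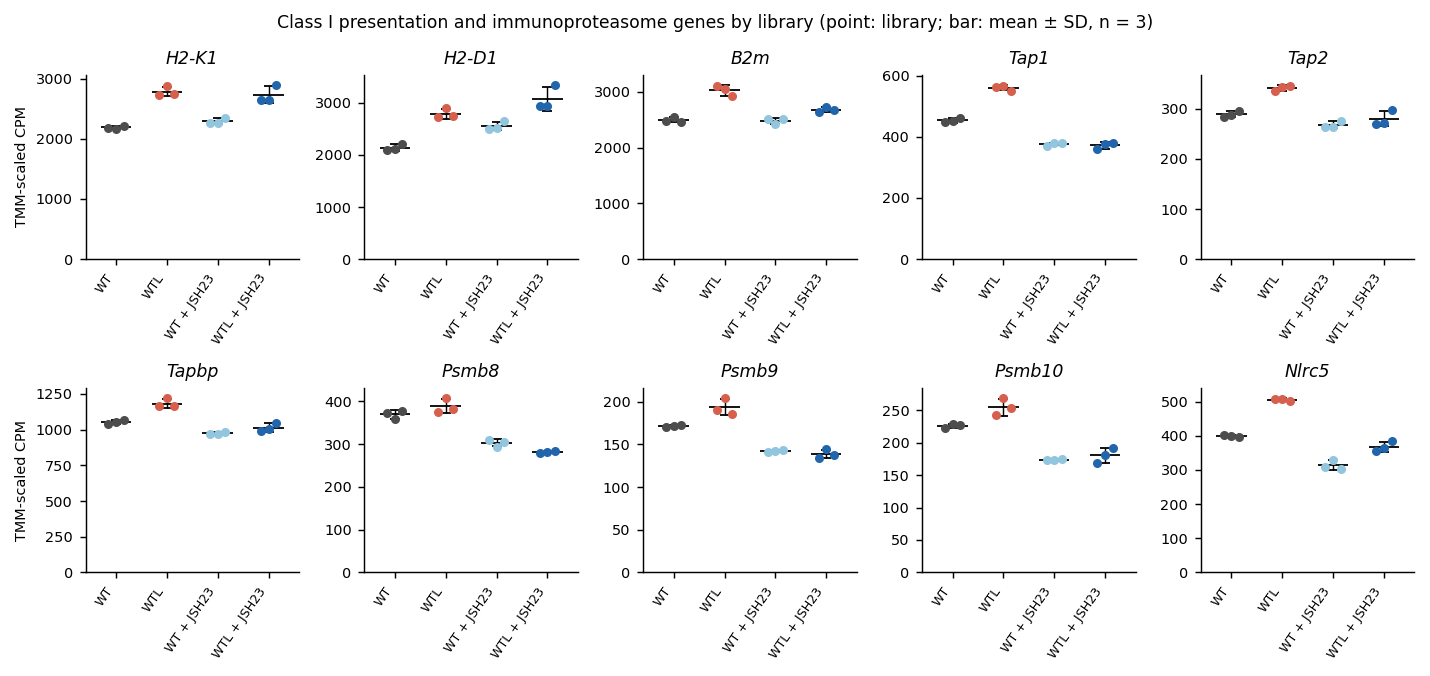
Normalised counts of the 10 genes in each library, in CPM (counts scaled to a common library size), with the mean and SD of 3 libraries. Tap1, Psmb9 and Psmb10 are lower in both JSH-23 groups than in WT and WTL, while H2-D1 is lowest in WT and highest in WTL + JSH23. The step from WT to WTL is lost or turned for most of these genes when libraries are scaled by their totals.

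To ask how LPS alone changed the pathway, WTL was compared with WT. Library sizes were first scaled by TMM, a method that takes most genes as unchanged between libraries. In WTL 9 of the 10 genes were higher on TMM-scaled counts and none was lower (edgeR quasi-likelihood test, adjusted p under 0.05), where 31.0% of all genes tested were called higher and 34.7% lower. By library totals or TPM none of the 10 was called higher, where 2106 and 1887 of all 14357 genes tested were. H2-D1 stood at 2089, 2108 and 2210.0 CPM in WT and at 2722, 2905 and 2743 CPM in WTL, a 1.31-fold rise (log2 0.39 ± 0.05 SE, adjusted p = 2.01e-07). H2-K1 rose 1.27-fold, from 2164 to 2213 CPM in WT to 2732 to 2868 CPM in WTL. Nlrc5 rose 1.27-fold as well, from 403, 398 and 397 CPM to 508, 508 and 502 CPM. For the heavy chains and their transactivator every WTL library lay above every WT library.

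Tap1 rose from 447, 452 and 461 CPM to 564, 567 and 550.2 CPM, or 1.24-fold. B2m rose 1.21-fold, Tap2 1.18-fold, Psmb9 1.13-fold, Psmb10 1.13-fold and Tapbp 1.12-fold, each with an adjusted p of 0.00166 or less. Psmb8, which encodes the β5i subunit, was at 374, 358 and 378 CPM in WT and 376, 407 and 382 CPM in WTL and did not pass (log2 0.07, 95% interval -0.01 to 0.15, adjusted p = 0.107). No gene of the set changed by as much as 2-fold in any comparison. The groups did not overlap for 9 of the 10 genes, all higher, against 32.7% of all genes higher and 37.2% lower without overlap.

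The direction of the LPS change depended, for 8 of the 10 genes, on how libraries were scaled. TMM factors were 1.08 to 1.09 in WT and 0.859 to 0.880 in WTL. When counts were scaled by library totals alone, a setting chosen after seeing the data, the median of all genes moved from -0.05 to -0.38 (log2). The calls among the 10 genes became 0 higher and 5 lower, with Psmb8 at -0.26 and Tap1 at -0.02. Of all 14357 genes tested, 2106 were called higher and 8601 lower by library totals. On log2(TPM + 1) the calls among the 10 were 0 higher and 3 lower, with the median of all genes at -0.26. There 1887 of all genes were called higher and 7743 lower. H2-D1 and Nlrc5 stayed above 0 under all 5 scalings (TMM, DESeq2 size factors, upper quartile, library totals and TPM), but were not called by library totals or on TPM. Read against the median of all genes, which removes any difference between count scalings by construction, the 10 genes lay 0.12 to 0.43 (log2) higher. On TPM 9 of 10 were above that median, and Psmb8 was at -0.01. In this comparison 5 of 6 dendritic cell markers and 4 of 6 tested neutrophil markers were called higher on TMM-scaled counts, and of 6 macrophage markers 2 were higher and 3 lower. Their part in the result was not tested.

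**Figure D2:**
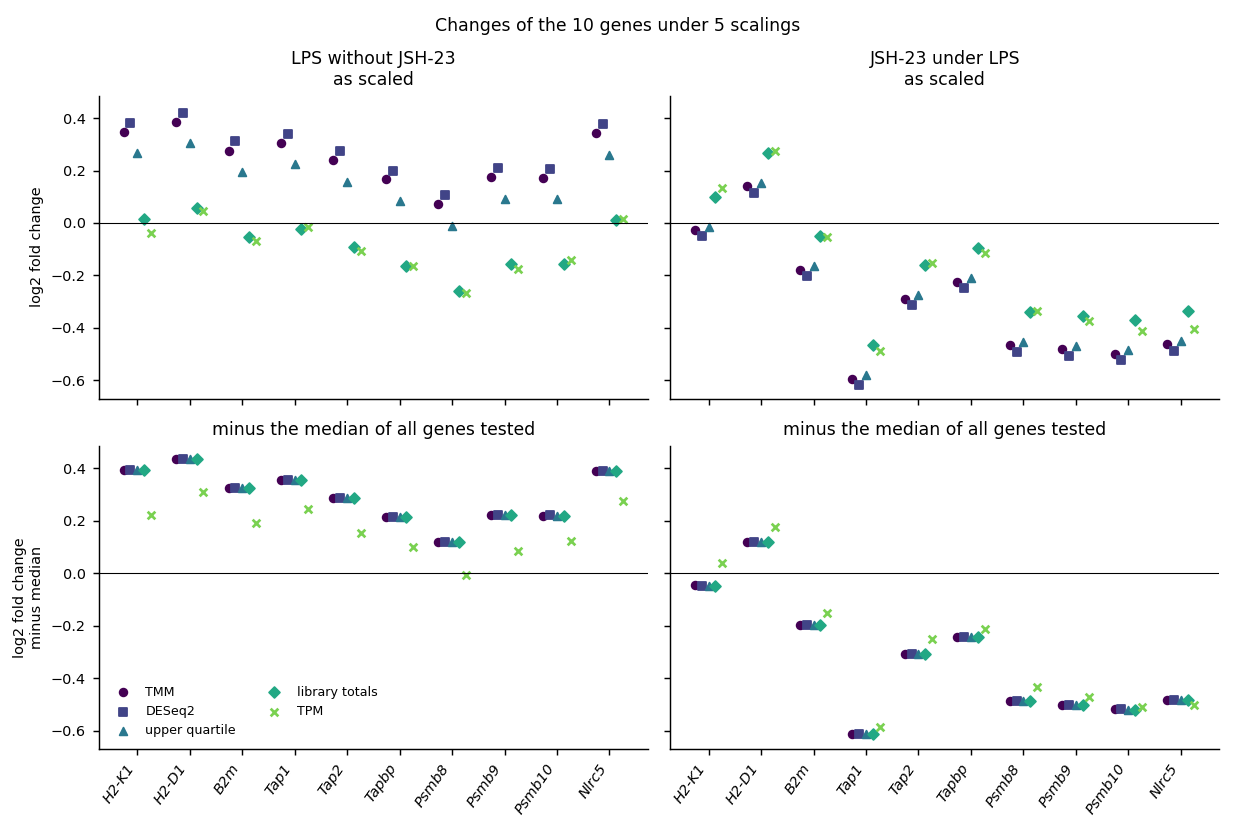
Log2 fold changes of the 10 genes under 5 scalings, as given by each scaling (upper panels) and after subtracting the median of all genes tested (lower panels), for LPS without JSH-23 (left) and JSH-23 under LPS (right). The LPS changes move from above to about or below 0 with library totals or TPM, whereas the falls of Tap1, Tap2, Tapbp, Psmb8, Psmb9, Psmb10 and Nlrc5 with JSH-23 stay below 0 under every scaling.

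To ask what JSH-23 did in stimulated cells, WTL + JSH23 was compared with WTL. In WTL + JSH23 8 of the 10 genes were lower and only H2-D1 was higher, where 24.2% of all genes tested were called lower and 24.5% higher. The largest fall was that of Tap1, which stood at 360, 376 and 379 CPM with JSH-23 against 564, 567 and 550.2 CPM without, a 1.51-fold fall (log2 -0.59 ± 0.03 SE, adjusted p = 6.27e-12). Only 9.20% of all genes fell further. All 3 Tap1 values with LPS and JSH-23 lay below the lowest value in resting WT cells, 447 CPM.

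All 3 immunoproteasome subunits fell. Psmb10, which encodes β2i, fell 1.41-fold, from 243, 269 and 253 CPM to 169, 181 and 191 CPM. Psmb9, which encodes β1i, fell 1.40-fold, from 190.3, 204 and 186 CPM to 135, 144 and 137 CPM. Psmb8 fell 1.38-fold, to 279.8, 281 and 283 CPM. For each subunit every WTL + JSH23 library was below every WTL library, and adjusted p ran from 1.48e-09 to 5.28e-09.

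Nlrc5 fell 1.38-fold, to 354, 363 and 384 CPM (log2 -0.46 ± 0.04 SE, adjusted p = 2.00e-09). Tap2 fell 1.22-fold and Tapbp 1.17-fold, and both stayed lower under all 5 scalings, as did Tap1, the 3 immunoproteasome subunits and Nlrc5. B2m fell 1.13-fold on TMM-scaled counts (log2 -0.18, adjusted p = 0.000185), but by library totals and on TPM it was not called. The 95% interval was -0.67 to -0.52 for Tap1 and -0.37 to -0.20 for its partner Tap2.

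The heavy chain genes did not follow. H2-K1 was at 2647, 2648 and 2893 CPM with JSH-23 and did not pass (log2 -0.03, 95% interval -0.11 to 0.05), while by library totals it was called higher at 0.10 and on TPM at 0.13. H2-D1 was at 2941, 2939.9 and 3342 CPM, 1.10-fold above WTL (log2 0.14 ± 0.05 SE, adjusted p = 0.0147). The highest value was that of the library that stood apart, and without it the change was 0.08 with adjusted p = 0.103. The call was also lost without WTL replicate 4 (adjusted p = 0.066) or WTL replicate 6 (adjusted p = 0.0507), so the H2-D1 call in stimulated cells rests on single libraries. Without WTL + JSH23 replicate 3 the same count of 8 genes was called lower, Tap1 at -0.61 and Nlrc5 at -0.50. The groups did not overlap for 8 genes that were lower and 1 that was higher, against 27.0% and 27.9% of all genes. On TMM-scaled counts 5 of 6 dendritic cell, 5 of 6 macrophage and 6 of 6 tested neutrophil markers were also called lower in this comparison. By library totals 1 dendritic cell, 5 macrophage and 3 neutrophil markers were lower and 1 dendritic cell marker was higher. On TPM 1, 5 and 3 of them were lower. The part of these markers in the result was not tested.

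**Figure D3:**
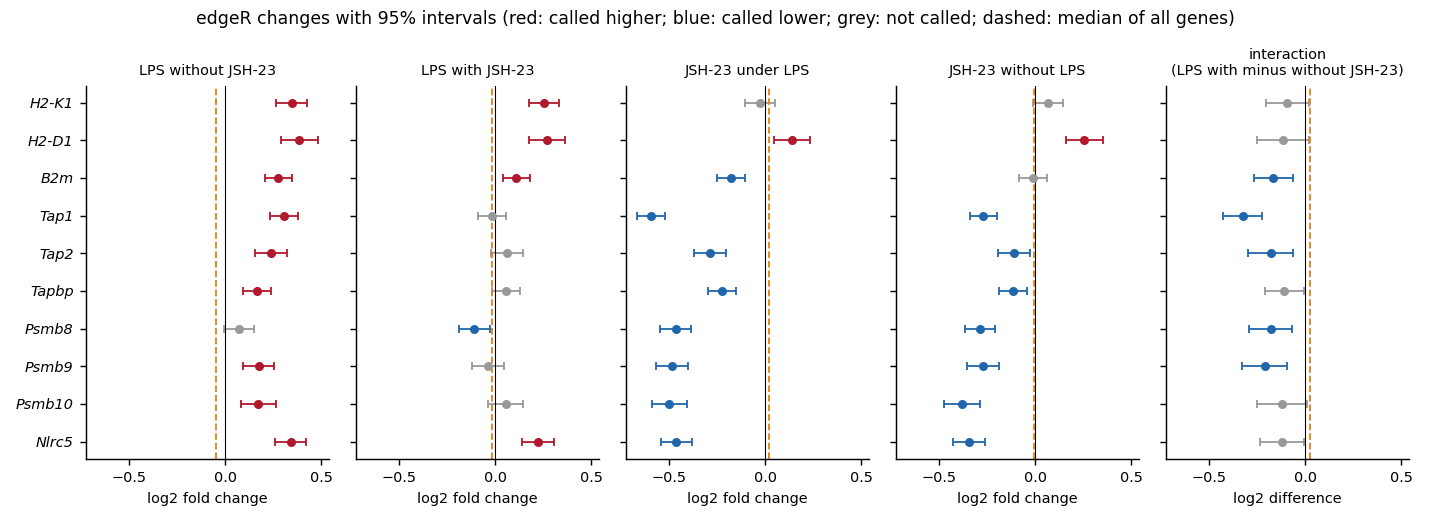
Log2 fold changes of the 10 genes with 95% intervals from edgeR in the 4 pair comparisons and the interaction, on TMM-scaled counts. Points are coloured by call (red higher, blue lower, grey not called) and the dashed line is the median of all genes tested. The 8 falls with JSH-23 under LPS run from -0.59 for Tap1 to -0.18 for B2m.

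In cells that received no LPS, JSH-23 lowered most of the genes but not the heavy and light chain genes. In WT + JSH23 against WT, 7 of the 10 genes were lower and H2-D1 was higher, where 22.1% of all genes tested were called lower and 18.8% higher. Psmb10 fell 1.3-fold, from 223, 229 and 227 CPM to 173, 173 and 175 CPM (log2 -0.38 ± 0.04 SE, adjusted p = 3.64e-07). Nlrc5 fell 1.27-fold, from 403, 398 and 397 CPM to 309, 330.3 and 304 CPM. Psmb8 fell 1.22-fold, Psmb9 1.21-fold and Tap1 1.21-fold, and these 5 genes were called lower under all 5 scalings. No library with JSH-23 reached the lowest WT library for any of the 5.

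Tap2 (log2 -0.11, adjusted p = 0.0306) and Tapbp (log2 -0.11, adjusted p = 0.0109) fell by less than the others. The Tap2 call was lost without WT + JSH23 replicate 1 or 2 or without WT replicate 5 or 6, where the change ranged from -0.13 to -0.10 over all libraries left out. B2m did not pass (log2 -0.01, 95% interval -0.08 to 0.06). H2-K1 did not pass either (log2 0.07, 95% interval -0.01 to 0.15), although its 2257, 2262 and 2352 CPM lay above the 3 WT libraries, and it was called higher by library totals. H2-D1 rose 1.19-fold, from 2089, 2108 and 2210.0 CPM to 2496, 2512 and 2643 CPM (log2 0.26 ± 0.05 SE, adjusted p = 9.36e-05), and this rise held under all 5 scalings. The groups did not overlap for 7 genes that were lower and 2 that were higher, against 27.1% and 24.4% of all genes. All 6 macrophage markers were called lower here as well. Of the 6 dendritic cell markers 2 were lower and 1 higher on TMM-scaled counts. By library totals 0 were lower and 1 higher, and on TPM 1 was lower. The part of these markers in the result was not tested. Both JSH-23 comparisons are of separate libraries, but each shares its controls with an LPS comparison.

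In cells pre-treated with JSH-23, 4 of the 10 genes passed as higher with LPS on TMM-scaled counts, and none by library totals or TPM. In WTL + JSH23 against WT + JSH23, 4 genes were higher (H2-D1, H2-K1, Nlrc5 and B2m) and Psmb8 was lower, where 27.4% of all genes tested were called higher and 27.1% lower. H2-D1 rose 1.21-fold, H2-K1 1.19-fold, Nlrc5 1.17-fold and B2m 1.08-fold. Without WTL + JSH23 replicate 3 these 4 calls and that of Psmb8 held, with H2-D1 at 0.21 (log2). Tap1 was at 371, 378 and 379 CPM without LPS and at 360, 376 and 379 CPM with it (log2 -0.02, 95% interval -0.09 to 0.05). Psmb8 fell 1.08-fold (adjusted p = 0.0219), which was lost without WTL + JSH23 replicate 1, WT + JSH23 replicate 1 or WT + JSH23 replicate 3. The groups did not overlap for 5 genes that were higher and 1 that was lower, against 28.9% and 30.2% of all genes.

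As with LPS alone, the scaling decided the sign for some of the genes. B2m, Nlrc5, Psmb10, Tap2 and Tapbp turned below 0 by library totals and on TPM, H2-D1 and H2-K1 stayed above 0, and Tap1, Psmb8 and Psmb9 stayed below. By library totals, with the median of all genes at -0.26, 0 genes were higher and 7 lower, and on log2(TPM + 1) the counts were again 0 and 7. Psmb8 was called lower under all 5 scalings. Against the median of all genes, H2-D1 stood 0.29 above on TMM-scaled counts, H2-K1 0.27 and Nlrc5 0.24, whereas Psmb8 stood 0.09 below.

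The difference between the LPS changes with and without JSH-23 was tested as an interaction. It was below 0 for all 10 genes on TMM-scaled counts and was called for 5 of them, where 8.44% of all genes tested were called lower and 9.54% higher. The largest was that of Tap1, at -0.32 ± 0.05 (log2, SE, adjusted p = 8.17e-05): Tap1 rose 1.24-fold with LPS alone and stayed at 0.988-fold after JSH-23. Psmb9 (-0.21), Tap2 (-0.18), Psmb8 (-0.18) and B2m (-0.17) were the other 4. Of 6 tested neutrophil markers 3 were also called lower in the interaction on TMM-scaled counts, with a median of -0.32 over the 6. By library totals and on TPM 0 of them were called, and their part in the result was not tested. Nlrc5 at -0.12 (95% interval -0.23 to -0.01, adjusted p = 0.143) and Psmb10 at -0.12 (adjusted p = 0.211) did not pass. Without WTL + JSH23 replicate 3, edgeR also called Nlrc5 (-0.15, adjusted p = 0.0382) and Tapbp (-0.13, adjusted p = 0.0426). The same fit called H2-K1 (-0.14, adjusted p = 0.0372) and H2-D1 (-0.18, adjusted p = 0.0142).

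Tap1 was called whichever library was left out. Leaving out single libraries moved the count of genes called from 1 (without WTL replicate 5) to 9 (without WTL + JSH23 replicate 3), and 2 remained called without WTL + JSH23 replicate 1 or without WT + JSH23 replicate 3. It was 3 without WT + JSH23 replicate 1, WT replicate 4 or WT replicate 5. Library totals and TPM left 1 call, that of Tap1, which was called under all 5 scalings. On log2(TPM + 1) the interaction of H2-K1 was 0.07 and those of H2-D1 and Tapbp were 0.02.

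Ratios of partner genes within a library do not depend on the scaling of libraries. The ratio of immunoproteasome to constitutive subunits fell with LPS and fell with JSH-23. Summed over Psmb8, Psmb9 and Psmb10 against Psmb5, Psmb6 and Psmb7, the TPM ratio was 2.52 ± 0.06 (SD, n = 3) in WT, 1.89 ± 0.03 in WTL, 1.62 ± 0.05 in WT + JSH23 and 1.22 ± 0.05 in WTL + JSH23. The lowest WT library was at 2.45 and the highest WTL + JSH23 library at 1.25, and none of the 4 groups overlapped another. The ratio was 1.33-fold lower with LPS both without and with JSH-23, and 1.55-fold lower with JSH-23 both under LPS and without it. Each of these differences reached the smallest p that an exact permutation test of 3 against 3 libraries can give, 0.1 (two-sided, adjusted p = 0.104 over 24 ratio comparisons), so the design cannot pass 0.05.

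The constitutive subunits had changes of their own. Psmb6, which encodes β1, was at 95.8, 101 and 98.4 CPM in WT, 166, 171 and 164 CPM in WTL, 129, 124 and 138 CPM in WT + JSH23 and 179, 187 and 213 CPM in WTL + JSH23. It rose 1.70-fold with LPS (adjusted p = 4.75e-11) and 1.32-fold with JSH-23 alone (adjusted p = 2.45e-06), and it was higher in both comparisons under all 5 scalings. The TPM ratio of Psmb9 to Psmb6 accordingly went from 0.935 ± 0.037 in WT to 0.619 ± 0.008 in WTL, 0.576 ± 0.018 in WT + JSH23 and 0.383 ± 0.035 in WTL + JSH23.

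Psmb5, which encodes β5, rose 1.24-fold with JSH-23 alone and 1.14-fold under LPS. However, 22.2% of its 100-base stretches also occur in transcripts of another gene. Its values, the summed ratio and the Psmb8 to Psmb5 ratio are therefore uncertain. The Psmb8 to Psmb5 ratio was 3.68 ± 0.04 in WT, 3.34 ± 0.03 in WTL, 2.45 ± 0.05 in WT + JSH23 and 2.14 ± 0.09 in WTL + JSH23. Psmb7, which encodes β2, rose 1.40-fold with LPS and 1.08-fold with JSH-23 alone and fell 1.09-fold with JSH-23 under LPS, the last being 0.00 (log2) by library totals. The Psmb10 to Psmb7 ratio fell from 4.38 ± 0.21 in WT to 2.71 ± 0.18 in WTL + JSH23.

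**Figure D4:**
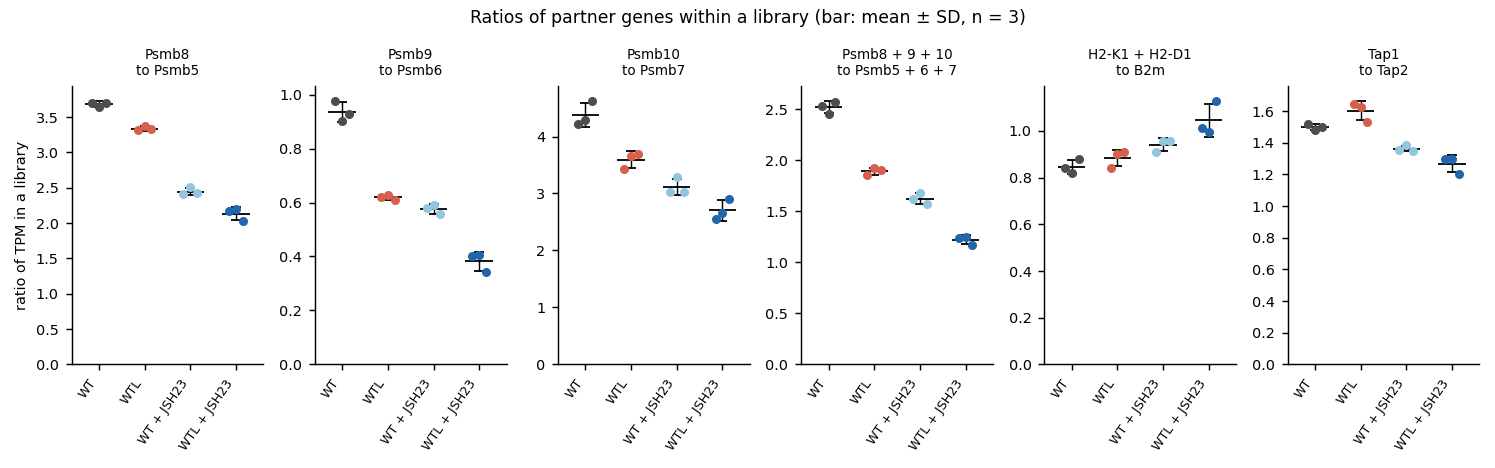
TPM ratios of partner genes in each library, with the mean and SD of 3 libraries per group, on axes that start at 0. The 4 immunoproteasome to constitutive ratios step down from WT to WTL, WT + JSH23 and WTL + JSH23, and the heavy to light chain ratio runs the other way.

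The heavy to light chain ratio moved in the opposite direction. H2-K1 and H2-D1 summed to 0.847 ± 0.031 of the B2m TPM in WT, 0.884 ± 0.035 in WTL, 0.941 ± 0.029 in WT + JSH23 and 1.05 ± 0.07 in WTL + JSH23. In WTL + JSH23 the library that stood apart, replicate 3, was at 1.126, against 1.014 and 0.9945 in the others. WT and WTL overlapped (exact two-sided permutation p = 0.2), and the other 3 comparisons did not. The ratio of Tap1 to Tap2 was 1.5 ± 0.02 in WT and 1.60 ± 0.06 in WTL, and fell to 1.36 ± 0.02 in WT + JSH23 and 1.27 ± 0.05 in WTL + JSH23. With LPS the Tap1 to Tap2 ratio was 1.07-fold higher without JSH-23 and 1.08-fold lower after JSH-23. The libraries did not overlap in either case, as in 23 of the 24 ratio comparisons, but the highest WT library was at 1.519 and the lowest WTL library at 1.533. Both comparisons gave an exact permutation p of 0.1 (adjusted p = 0.104).

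Other class I genes moved in both directions, as all genes did. Of 17 classical, nonclassical and class I-like genes 14 could be tested, and H2-Q1, H2-Q2 and H2-T3 were too low. With JSH-23 under LPS 5 were higher and 5 lower (median log2 -0.01 against 0.02 for all genes), and without LPS 6 were higher and 4 lower (median 0.10 against -0.01). Over all genes 24.5% were higher and 24.2% lower under LPS, and 18.8% and 22.1% without, so these counts are not read as particular to class I genes. H2-Q6, a nonclassical heavy chain gene, stood at 257 to 266 CPM in WTL and 365 to 380.1 CPM in WTL + JSH23, a 1.42-fold rise (adjusted p = 1.26e-10). At the other end, Cd1d1, which encodes the CD1d molecule that shows lipids to NKT cells, fell 1.78-fold under LPS, from 166 to 169 CPM to 87.8 to 102 CPM, and 1.55-fold without LPS. H2-T24 fell 1.53-fold under LPS and 1.48-fold without. Of the distinct 100-base stretches 10.8% for H2-Q6 and 10.5% for Cd1d1 also occur in another gene, so both are uncertain. Hfe, which regulates iron uptake, fell 1.58-fold with JSH-23 without LPS.

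**Figure D5:**
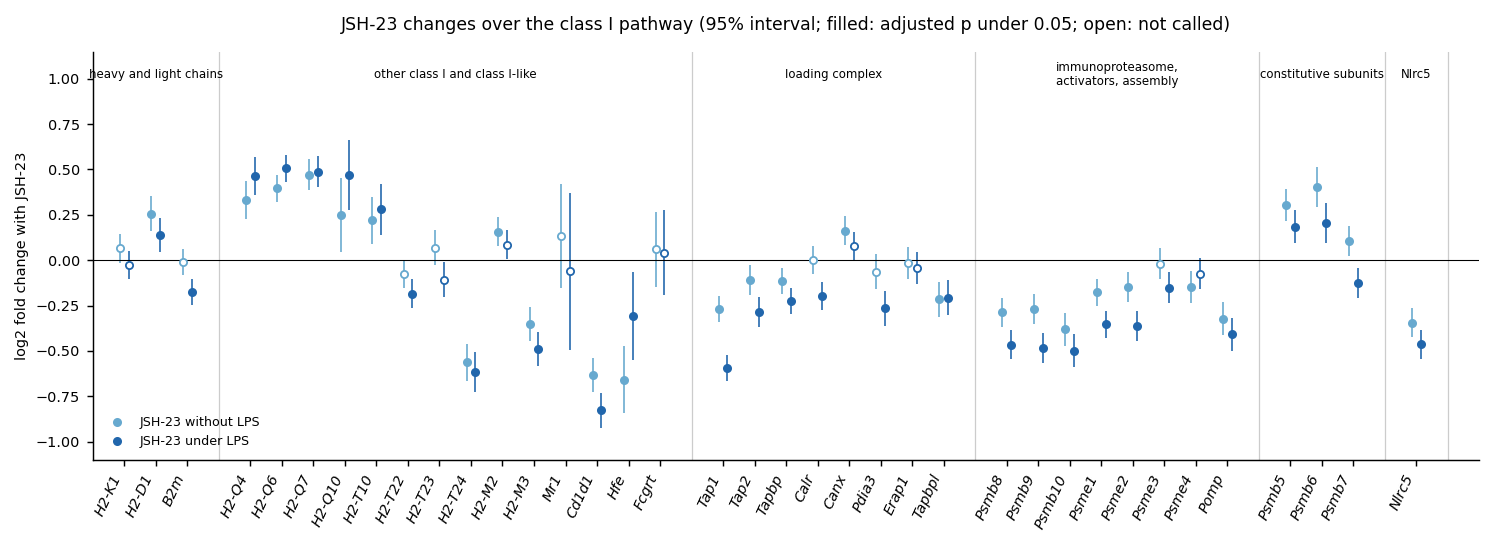
Log2 fold changes with JSH-23, without LPS (light) and under LPS (dark), for the tested class I pathway genes grouped by role, with 95% intervals. Filled points passed at an adjusted p under 0.05. Points of the H2-Q genes lie above 0, while the transporter, immunoproteasome and activator genes that passed lie below 0.

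With LPS some of these genes had larger fold changes than any of the 10. H2-M2 rose 1.79-fold without JSH-23 and 1.71-fold with it. Hfe fell 2.44-fold and 1.91-fold, and Mr1, which shows vitamin B metabolites to MAIT cells, fell 3.00-fold and 3.44-fold, the latter at only 1.05 to 1.47 CPM in WTL. In all, 8 of the 14 were higher and 6 lower with LPS alone on TMM-scaled counts (median 0.21), where 31.0% and 34.7% of all genes were. By library totals 4 were higher and 7, with H2-Q6, lower, where 2106 and 8601 of all 14357 genes were. After JSH-23 8 were higher and 5 lower (median 0.18), where 27.4% and 27.1% of all genes were. By library totals 5 were then higher and 7 lower, where 2011 and 7601 of all genes were. H2-M2, Hfe and Mr1 kept their direction by library totals and on TPM.

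The proteasome activators and the assembly factor were mostly lower with JSH-23. Of Psme1, Psme2, Psme3, Psme4 and Pomp, 4 were higher with LPS alone and none lower on TMM-scaled counts (median log2 0.25). Over all genes 31.0% were higher and 34.7% lower. By library totals Psme1, Psme3 and Pomp were below 0. With JSH-23 4 of these genes were lower and none higher both under LPS (median -0.35) and without it (median -0.15). Over all genes 24.2% and 22.1% were lower. Pomp, which assembles the 20S core, fell 1.33-fold with JSH-23 under LPS (adjusted p = 8.38e-08), and Psme2 and Psme1, which encode the PA28 activator, fell 1.29-fold and 1.28-fold. All 3 were also lower by library totals and on TPM. Of the 5 peptide loading and trimming genes (Calr, Canx, Pdia3, Erap1, Tapbpl), 5 were higher with LPS alone (median 0.17), led by Canx at 1.21-fold. Again 31.0% of all genes were higher. By library totals all 5 were below 0, Canx at -0.06 (log2). With JSH-23 under LPS 3 of them were lower, led by Pdia3 at 1.20-fold, where 24.2% of all genes were lower. On TPM none was called lower and 2 were called higher, where 1889 and 4257 of all 14357 genes were. Without LPS Tapbpl was lower at 1.16-fold and Canx higher at 1.12-fold.

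Genes for factors that act on class I promoters were mostly lower with JSH-23 on TMM-scaled counts. Of 14 such genes (Rfx5, Rfxap, Rfxank, Nfya, Nfyb, Nfyc, Creb1, Irf1, Irf2, Stat2, Irf9, Rela, Relb and Nfkb1), 11 were lower and 2 higher with JSH-23 under LPS (median -0.26) and 9 were lower and 2 higher without LPS (median -0.17), where 24.2% and 22.1% of all genes were lower and 24.5% and 18.8% higher. On TPM 6 were lower under LPS and 8 without, where 1889 and 2416 of all 14357 genes were. None was higher on TPM, where 4257 and 2035 of all genes were. Irf2, an interferon regulatory factor, was at 84.4 to 87.3 CPM in WTL and 50.2 to 54.0 CPM in WTL + JSH23, 1.64-fold lower (adjusted p = 8.18e-12). Stat2, a mediator of interferon signals, was 1.55-fold and Nfyb, a subunit of the factor that binds CCAAT boxes, 1.54-fold lower. In cells without LPS, Irf1 was 1.56-fold, Rfx5 1.49-fold and Irf2 1.45-fold lower. With LPS alone 8 of the 14 were higher and 2 lower on TMM-scaled counts (median 0.17), where 31.0% and 34.7% of all genes were. By library totals 4 were higher and 8 lower, where 2106 and 8601 of all 14357 genes were. Irf1, another interferon regulatory factor, rose 2.55-fold with LPS alone and 3.24-fold after JSH-23, an interaction of 0.35 (adjusted p = 7.01e-05). Nfkb1 rose 2.39-fold with LPS alone and 2.14-fold after JSH-23.

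Genes of interferons and their receptors were mostly lower with JSH-23. Ifng could not be tested. Ifnb1, which encodes interferon-β, had 10 to 17 counts per library in WT, 44 to 49 in WTL, 0 to 3 in WT + JSH23 and 3 to 7 in WTL + JSH23, and was 8.41-fold lower in WTL + JSH23 than in WTL (adjusted p = 6.68e-07). Of 5 ligand and receptor genes tested, 4 were lower with JSH-23 under LPS (median -0.30) and 5 without LPS (median -0.19), where 24.2% and 22.1% of all genes were lower. On TPM 3 were lower under LPS and 2 without, where 1889 and 2416 of all 14357 genes were. Ifnar1, a chain of its receptor, was 1.47-fold lower with JSH-23 under LPS and 1.68-fold lower without LPS.

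Genes with the pattern over the 12 libraries most like that of Nlrc5 were Tubb6 (Pearson r = 0.992 of log2 CPM), Cmtr1 (0.991), Il4i1 (0.989), H2-DMb1 (0.988) and Crybg1 (0.988). Those most like Tap1 were Usp18 (0.994), Ythdf1 (0.993), Sap30 (0.993), Nrde2 (0.991) and Zbp1 (0.990). They were ranked among 9023 protein-coding genes outside the set with a mean of at least 5 CPM, and the points share 4 groups, so the values describe likeness of group means. Usp18, an interferon-induced gene, had a mean of 263 CPM in WT, 423 in WTL, 166 in WT + JSH23 and 174 in WTL + JSH23, so as for Tap1 both JSH-23 groups had the lowest means. Among the 10 genes, Nlrc5 had r = 0.963 with Tapbp and 0.938 with Tap2 but 0.520 with H2-K1 and 0.094 with H2-D1.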

How the data were processed

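RNA-seq was analysed for 12 BMDC libraries, 3 per group, which the methods call biological replicates. The authors trimmed reads with Trim Galore, aligned them to mm10 with STAR (2.6.0c in the submitters' notes) and ran RSEM on 100-base read pairs. The deposited expected counts are not normalised, and the deposited TPM and FPKM values were computed by the authors with effective lengths; FPKM was not used. The labels and the methods name different RNA selection kits, which was not settled, so the strand setting is open and antisense reads may be counted. Symbols came from GENCODE M21.

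Expected counts were rounded. edgeR 4.0.16 (filterByExpr, TMM, quasi-likelihood F-test, 1 mean per group, all 12 libraries) was run in R 4.3.3 on 14357 genes, adjusted by Benjamini-Hochberg over all of them. Calls needed an adjusted p under 0.05. Adjusted p values are from edgeR, and intervals cover 95%. The fit was tested on simulated data. DESeq2 1.42.0, limma 3.58.1 on log2(TPM + 1) and log2(TPM + 0.1), other scalings, filters, sample sets and a replicate block were alternatives. The 10 genes and the gene lists were chosen with earlier results of these data known. Named genes are the 10 genes, the 3 constitutive subunits, per list and comparison at most 3 called genes with the largest change, and the 5 genes most correlated with Nlrc5 and with Tap1. Whole-library scaling by totals was added after seeing the data. Replicates of a group differed by more than sampling noise. The lowest expected count of any of the 10 genes in any library was 3171.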

Additional observations from a re-analysis of the deposited data

Results flagged for a closer look

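By the edgeR interaction term, the LPS change was not the same after JSH-23 as without it for 5 of the 10 genes (log2 scale, LPS change with JSH-23 minus LPS change without). The values were -0.32 for Tap1, -0.21 for Psmb9, -0.18 for Tap2, -0.18 for Psmb8 and -0.17 for B2m. Tap1 kept its call under all 5 scalings and with any single library left out. For the other 4 the call was lost by library totals, on TPM and when certain single libraries were left out. Groups held 3 libraries each, too few for a test of outlying libraries.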

How the results depend on the processing

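The sign of most LPS changes depended on the scaling, and the falls with JSH-23 of Tap1, Psmb8, Psmb9, Psmb10 and Nlrc5 did not. For LPS without JSH-23, upper quartile scaling put Psmb8 at -0.011 (log2, as all changes here). Library totals gave 0 genes higher and 5 lower, with B2m at -0.054, Psmb10 -0.158, Psmb8 -0.26, Psmb9 -0.156, Tap1 -0.024, Tap2 -0.091 and Tapbp -0.165. On TPM with either pseudocount (1 or 0.1) it was 0 higher and 3 lower, with B2m at -0.07, H2-K1 -0.04, Psmb10 -0.14, Psmb8 -0.267, Psmb9 -0.177, Tap1 -0.015, Tap2 -0.108 and Tapbp -0.163. Of all 14357 genes, 8601 were lower by library totals and 7743 on TPM (pseudocount 1). For LPS with JSH-23, upper quartile scaling gave 3 lower, with Psmb10 at -0.031, Tap2 -0.023 and Tapbp -0.028. Library totals gave 0 higher and 7 lower, with B2m at -0.129, Nlrc5 -0.017, Psmb10 -0.186, Tap2 -0.178 and Tapbp -0.183. TPM gave 0 higher and 7 lower, with B2m at -0.102, Nlrc5 -0.038, Psmb10 -0.162 (pseudocount 1) or -0.163 (pseudocount 0.1), Tap2 -0.137 and Tapbp -0.143. Here 7601 of all genes were lower by library totals and 5924 on TPM (pseudocount 1). For JSH-23 under LPS, 2 genes were higher by library totals and on TPM, where H2-K1 was 0.10 and 0.134. For JSH-23 without LPS, B2m was 0.005 by upper quartile, 0.025 by library totals and 0.008 with only the groups compared, and 2 genes were higher under the last 2 settings. For the interaction, 1 gene was lower by library totals and on TPM and 3 with no filter on low counts, and on TPM H2-D1 was 0.02, H2-K1 0.074 and Tapbp 0.02. Requiring a 2-fold change left 0 genes in every comparison. The causes of these shifts were not tested beyond the scaling itself.

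Leaving out 1 library at a time gave 0 to 1 genes higher for JSH-23 under LPS, 0 to 1 lower for LPS with JSH-23, 6 to 7 lower for JSH-23 without LPS and 1 to 9 lower for the interaction. Tap1 ranged from -0.032 to 0.009 for LPS with JSH-23 and B2m from -0.022 to 0.006 for JSH-23 without LPS. Over the 10 genes and 5 comparisons, DESeq2 kept direction and call in 47 of 50 values and a filter at a mean of 1 CPM in 50. The correlation of deviations was 0.014 to 0.061 for libraries of the same replicate number and -0.0564 to 0.0355 for different numbers. Whether the numbers mark pairs was not settled. A replicate block could be fitted for both LPS comparisons and the interaction only, as JSH-23 groups share no numbers with WT and WTL. It kept direction and call in 30 of 30 values, Tap1 without JSH-23 rising by 0.31 with LPS. With 3 libraries a group, the ratio tests cannot pass 0.05.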

Other observations

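Of 5 genes used in cross-presentation, the loading of outside antigen on class I molecules, 2 were lower and 1 higher with JSH-23 under LPS (median log2 0.02, the same as all genes) and 3 were lower and 2 higher without LPS (median -0.13 against -0.01). Over all genes 24.2% were lower and 24.5% higher under LPS, and 22.1% and 18.8% without. Wdfy4, which is needed for cross-presentation by conventional dendritic cells, fell 1.5-fold with JSH-23 under LPS (edgeR adjusted p = 6.59e-08, but not called on TPM) and 1.63-fold without LPS (adjusted p = 1.83e-09). Lnpep, which encodes an endosomal peptidase, fell 1.36-fold under LPS and 1.43-fold without. Cybb, a subunit of the phagosomal NADPH oxidase, rose 1.31-fold with LPS alone and 1.44-fold with LPS after JSH-23, and was also above 0 by library totals (log2 0.06 and 0.29).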
